A study of Macaca mulatta with 6 samples.

Results

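Matricellular and microfibril genes encode extracellular proteins that surround a cell or sit between cells and fibrils. The set comprised 10 genes fixed by name, namely FN1, POSTN, TNC, THBS1, THBS2, THBS4, SPARC, SPP1, FBN1 and ELN. Of these, 8 had a row among the 17795 genes of the count table and all 8 passed the filter on low counts. THBS2 and SPARC were not analysed here. Expression was measured by bulk RNA sequencing of rhesus monkey cultures labelled as spermatogonial stem cells (SSCs), which in the testis renew themselves and give rise to sperm. SSC PDGF+ comprised 3 libraries from cultures given human platelet-derived growth factor (PDGF), and SSC PDGF- comprised 3 libraries from cultures without it. The study's methods describe cells in droplets of basement membrane extract under a serum-containing medium with PDGF, GDNF, EGF, bFGF, LIF and Wnt3a. Whether the PDGF-free cultures differed in anything else is not given in the sources used here. The sample labels give testis as the tissue, with replicate 1 of each group in batch 1 and replicates 2 and 3 in batch 2. The age of the donors, the days in culture and whether the replicates came from separate cultures are not given in the sources used here.

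Fibronectin, encoded by FN1, is assembled by cells into fibrils on which collagen and other matrix proteins are deposited. Matricellular proteins such as periostin, tenascin-C, the thrombospondins and osteopontin do little as scaffolding and act mainly by binding cell-surface receptors, growth factors and other matrix proteins. Microfibrils are built from fibrillin and carry latent TGF-beta complexes, and elastic fibres form when elastin is laid down on a microfibril template. In the testis, peritubular myoid cells and interstitial fibroblasts are the cells best known for making such matrix around the seminiferous tubules.

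Several of the proteins share the tripeptide RGD, the short motif by which integrins bind fibronectin, and the coding sequences are shown because the receptors of these proteins are described after them. Each line runs 5′ to 3′ along the coding strand of the longest RefSeq coding model in Mmul_10, annotation release 103, with the 3 codons of RGD in capitals.
FN1: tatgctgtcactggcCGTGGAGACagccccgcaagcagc
FBN1: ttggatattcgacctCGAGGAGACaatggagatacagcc
SPP1: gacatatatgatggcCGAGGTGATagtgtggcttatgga
TNC: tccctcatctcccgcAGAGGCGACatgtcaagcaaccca
THBS1: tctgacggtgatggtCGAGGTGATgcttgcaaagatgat
THBS4: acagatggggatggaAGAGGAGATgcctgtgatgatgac

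RGD occurred once in each of these 6 proteins, at residues 1615 to 1617 of FN1, 1541 to 1543 of FBN1, 159 to 161 of SPP1, 877 to 879 of TNC, 926 to 928 of THBS1 and 562 to 564 of THBS4. It did not occur in the models of POSTN or ELN. Over 19906 genes with a readable coding frame, 8.15% held the tripeptide at least once, and long proteins such as FN1 (2478 residues) and FBN1 (2871 residues) have more places for it. A match is a description of the sequence and not a proven binding site. Elastin has a motif of its own, the hexapeptide VGVAPG, which is known as a ligand of the elastin receptor complex. The window below holds the 7 copies that ELN carries in a row at residues 513 to 554, in capitals, and 0.01% of the coding frames (2 genes) held the hexapeptide.
ELN: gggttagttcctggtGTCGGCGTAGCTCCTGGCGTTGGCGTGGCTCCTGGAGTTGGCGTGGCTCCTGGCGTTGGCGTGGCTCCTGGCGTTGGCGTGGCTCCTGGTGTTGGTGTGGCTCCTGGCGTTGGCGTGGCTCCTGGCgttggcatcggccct

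Total counts ranged from 13095467 to 14102697 in SSC PDGF+ and from 10593805 to 11605908 in SSC PDGF-, without overlap. Of 12 markers of undifferentiated spermatogonia, 10 were listed and 7 of these, GFRA1, ERBB4, ZBTB16, NANOS2, SALL4, PIWIL4 and MAGEA4, lay below 1 CPM (counts scaled to each library's total after TMM normalization, a correction for RNA composition) in every library, with NANOS2 at 0. The 10 summed to 135 to 152 CPM in SSC PDGF+ and 178 to 262 CPM in SSC PDGF-. Markers of fibroblasts summed to 13830 to 19040 CPM in SSC PDGF+ and 16670 to 18780 CPM in SSC PDGF-, and those of peritubular myoid and smooth muscle cells to 400.0 to 508.3 and 1015 to 1169 CPM. Germ cell markers of general use summed to 0.301 to 1.22 CPM and 5.09 to 9.58 CPM, and spermatid markers to 57.4 to 88.4 and 496.1 to 788.4 CPM. The sums were 110 to 142 and 92.0 to 144 CPM for Sertoli cells, 259 to 324 and 216 to 258 CPM for Leydig cells, 20.7 to 32.5 and 22.4 to 45.8 CPM for endothelial cells, and 15.9 to 19.9 and 11.6 to 17.3 CPM for macrophages. EGFL7, at 19.2 ± 6.89 and 28.7 ± 11.2 CPM (SD, n = 3), made up most of the endothelial sum, and CLDN5 was not listed. CD68, at 15.8 ± 1.61 and 12.95 ± 2.48 CPM, made up most of the macrophage sum, and C1QA, C1QB and AIF1 were not listed. Most of the Leydig cell sum came from STAR, at 296 ± 34.5 and 234 ± 19.45 CPM (SD, n = 3). CYP11A1, INSL3 and LHCGR lay below 1 CPM in every library. Most of the Sertoli cell sum came from GATA4, at 127 ± 17.15 and 116 ± 26.05 CPM. FSHR lay below 1 CPM in every library, and SOX9, AMH and CLDN11 were not listed. Most of the sum for undifferentiated spermatogonia came from ID4, at 131 ± 4.22 CPM in SSC PDGF+ and 163 ± 14.4 CPM in SSC PDGF- (SD, n = 3), and the rest from FGFR3 at 13.7 ± 5.76 and 57.8 ± 28.8 CPM and TSPAN33 at 0.248 ± 0.127 and 3.01 ± 1.21 CPM, besides the markers below 1 CPM. The libraries labelled as SSCs thus held ID4 and FGFR3, with 7 of the 10 listed markers near 0, and abundant fibroblast markers. In bulk libraries, fewer cells of a type and less RNA per cell cannot be told apart.

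Of the 8 genes tested, ELN and POSTN were lower in SSC PDGF+, FBN1 was higher, and FN1, THBS1, TNC, SPP1 and THBS4 did not pass the threshold (edgeR's quasi-likelihood test, Benjamini-Hochberg adjusted p under 0.05 over all 11539 genes tested). Over all genes tested, 7.61% were called higher and 10.7% lower. With the replicate number as a block in the model, which pairs libraries of the same batch, FN1 and THBS1 were called higher too, giving 3 higher and 2 lower, and over all genes tested 31.1% were then called higher and 29% lower. With replicates 2 and 3 of each group summed before the fit, 0 of the 8 were called higher and 2 lower, ELN and POSTN, and 1.72% of all genes were called higher and 4.06% lower. The median log2 fold change of the 8 genes was -0.17, and that of all genes tested was 0.02. In 4 of the 8 genes, FN1, FBN1, ELN and POSTN, the CPM values of the groups did not overlap, which held for 37.6% of all genes tested.

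**Figure D1:**
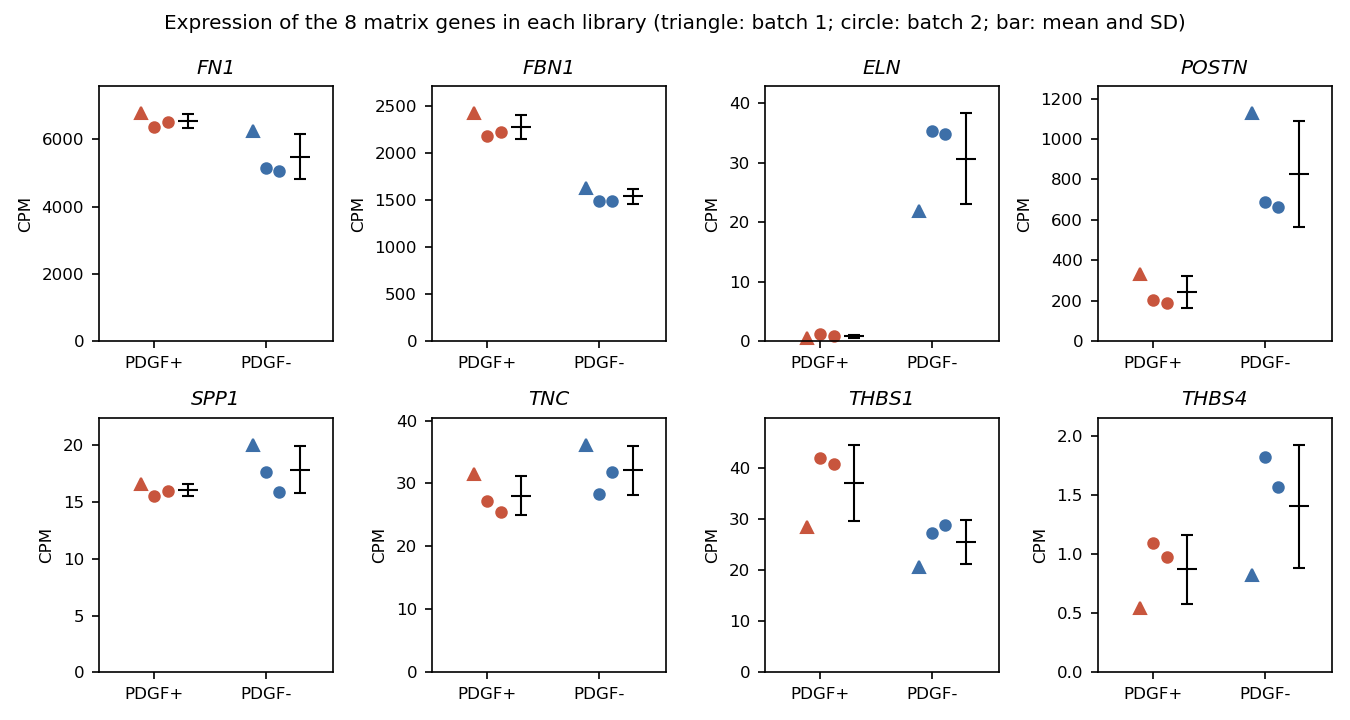
Expression of the 8 genes in CPM after TMM normalization (vertical axes, each from 0), with 1 point per library, a triangle for batch 1, circles for batch 2, and the mean with its SD (n = 3) as a bar. ELN and POSTN are low in all 3 SSC PDGF+ libraries, FBN1 is high in them, and in every panel the triangle lies on the same side of the circles in both groups.

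FN1 was the most abundant of the genes. Its level was 6777, 6359 and 6509 CPM in SSC PDGF+ replicates 1, 2 and 3 and 6265, 5144 and 5063 CPM in SSC PDGF- replicates 1, 2 and 3. The lowest SSC PDGF+ library lay just above the highest SSC PDGF- library, which was that of batch 1. The means were 6548 ± 211 and 5491 ± 672 CPM (SD, n = 3), which gave a log2 difference of 0.25 ± 0.12 (SE, adjusted p = 0.17 in edgeR), or a fold of 1.19 with a 95% interval of 0.989 to 1.44. With the replicate block, the log2 fold change was 0.26 and the edgeR adjusted p was 2.3e-06, against 0.59 with replicates 2 and 3 summed. The log2 difference was 0.11 in batch 1 and 0.33 in batch 2. Batch 1 held 1 library of each group, so these values have no replicate check in batch 1. Without SSC PDGF- replicate 1 the log2 fold change was 0.35 (edgeR adjusted p = 0.039). The annotation holds 31 coding transcripts of FN1, and counts per gene do not separate its spliced forms.

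FBN1, which encodes fibrillin-1, the main subunit of microfibrils, was at 2419, 2177 and 2222 CPM in SSC PDGF+ and 1624, 1490 and 1492 CPM in SSC PDGF-. Every SSC PDGF+ library was above every SSC PDGF- library by more than the spread within either group. The means were 2273 ± 129 and 1536 ± 76.8 CPM (SD, n = 3), which gave a log2 difference of 0.57 ± 0.11 (SE, adjusted p = 0.0097 in edgeR) and a fold of 1.48 with a 95% interval of 1.25 to 1.76. On the log2 scale the batches gave 0.58 (batch 1) and 0.56 (batch 2). Leaving out SSC PDGF- replicate 2 (log2 difference 0.55, adjusted p = 0.054 in edgeR) or 3 (0.55, adjusted p = 0.052) ended the call, and so did summing replicates 2 and 3 within each group (0.58, adjusted p = 0.17).

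ELN, the gene of elastin, changed most among the 8 genes. The SSC PDGF+ libraries held 8, 14 and 10 counts of it and the SSC PDGF- libraries 267, 369 and 356, which corresponds to 0.540, 1.095 and 0.751 CPM against 21.9, 35.4 and 34.9 CPM. The groups lay far apart, and the lowest SSC PDGF- library was that of batch 1, which was the highest for FN1 and FBN1. The means were 0.795 ± 0.280 and 30.7 ± 7.62 CPM (SD, n = 3), which gave a log2 difference of -5.27 ± 0.33 (SE, adjusted p = 9.3e-05 in edgeR). ELN was thus 38.5-fold lower in SSC PDGF+, with a 95% interval of 22.7 to 65.5. Within batch 1 the log2 difference was -5.34, and within batch 2 it was -5.25. The call was kept with each library left out in turn, with log2 fold changes of -5.55 to -5.03.

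The 2 microfibril and elastic fibre genes therefore moved in opposite directions, fibrillin-1 up and elastin down, in each batch. The repeats printed above are in the gene whose transcript was at about 1 CPM or less in the SSC PDGF+ libraries.

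POSTN encodes periostin, a matricellular protein of fibroblasts that binds integrins and collagen. It was at 331, 204 and 189 CPM in SSC PDGF+ and 1128, 687 and 665 CPM in SSC PDGF-. The batch 1 library was the highest of its group in both, and the groups did not overlap. The means were 242 ± 78.2 and 827 ± 261 CPM (SD, n = 3), which gave a log2 difference of -1.77 ± 0.28 (SE, adjusted p = 0.0045 in edgeR), which is 3.42-fold lower with a 95% interval of 2.18 to 5.37. The log2 difference was -1.77 in batch 1 and -1.78 in batch 2. With each library left out in turn it stayed between -2.06 and -1.49, and the call was kept.

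Markers of peritubular myoid and smooth muscle cells were lower in SSC PDGF+ together with ELN and POSTN. Of 6 such markers, all tested, ACTA2, DES and MYLK were called lower and MYH11, TAGLN and CNN1 were not called, and their summed levels are given above. With the replicate block, 5 of the 6 were called lower and 0 higher, beside 29% and 31.1% of all genes, and MYH11 stayed uncalled. Of 6 fibroblast markers, COL3A1 and PDGFRA were called lower and COL1A1, COL1A2, DCN and LUM were not, and their summed levels overlapped between the groups. Most of that sum came from 3 collagen genes, which moved in opposite directions. COL1A1 was at 6841 ± 2384 CPM in SSC PDGF+ and 4522 ± 1558 CPM in SSC PDGF- (SD, n = 3). COL1A2 was at 6057 ± 750 and 5336 ± 333 CPM, and COL3A1 at 2852 ± 88.5 and 5972 ± 249 CPM. With the block, COL1A1 and COL1A2 were called higher and the other 4 markers lower. Lower calls were also made for 4 of 4 tested spermatid markers, 2 of 3 general germ cell markers and 2 of 3 markers of undifferentiated spermatogonia, and none of these was called higher, beside 10.7% of all genes tested called lower. The part of any of these cells in the levels of ELN and POSTN was not tested.

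THBS1 encodes thrombospondin-1, which binds CD36 and CD47 and can activate latent TGF-beta. It was at 28.5, 42.0 and 40.7 CPM in SSC PDGF+ and 20.5, 27.2 and 28.8 CPM in SSC PDGF-. The groups overlapped, since the SSC PDGF+ library of batch 1 lay between the SSC PDGF- libraries of batch 2, and within each batch the SSC PDGF+ libraries were the higher ones. The means were 37.1 ± 7.46 and 25.5 ± 4.39 CPM (SD, n = 3), which gave a log2 difference of 0.54 ± 0.21 (SE, adjusted p = 0.12 in edgeR) and a fold of 1.45 with a 95% interval of 1.04 to 2.04. With the replicate block the log2 fold change was 0.53 and the edgeR adjusted p was 8.2e-05, against 0.41 with replicates 2 and 3 summed. Batch 1 gave a log2 difference of 0.47 and batch 2 one of 0.56, and without SSC PDGF+ replicate 1 the fitted value was 0.71 (edgeR adjusted p = 0.041).

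THBS4, a thrombospondin known from tendon, muscle and heart, was close to the limit of detection. The SSC PDGF+ libraries held 8, 14 and 13 counts of it and the SSC PDGF- libraries 10, 19 and 16, or 0.540, 1.095 and 0.977 CPM against 0.821, 1.82 and 1.57 CPM. The groups overlapped. The log2 fold change was -0.68 (standard error 0.48) with a 95% interval of -1.77 to 0.41 (edgeR adjusted p = 0.35), so the fit allowed both lower and higher levels.

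TNC encodes tenascin-C, a protein of wound and tumour stroma that modulates adhesion to fibronectin. Its values were 31.5, 27.3 and 25.5 CPM in SSC PDGF+ and 36.1, 28.4 and 31.8 CPM in SSC PDGF-, which overlapped. The means were 28.1 ± 3.11 and 32.1 ± 3.90 CPM (SD, n = 3). The log2 fold change was -0.19 (standard error 0.17) with a 95% interval of -0.58 to 0.20 (edgeR adjusted p = 0.46).

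SPP1 encodes osteopontin, a secreted phosphoprotein that binds integrins and CD44. It was at 16.6, 15.6 and 16 CPM in SSC PDGF+ and 20.0, 17.6 and 15.9 CPM in SSC PDGF-, with overlapping groups. The means were 16.1 ± 0.524 and 17.9 ± 2.09 CPM (SD, n = 3), and the log2 fold change was -0.15 (standard error 0.17) with a 95% interval of -0.54 to 0.23 (edgeR adjusted p = 0.56). The intervals of TNC and SPP1 allow changes of up to 1.49-fold and 1.45-fold downward in SSC PDGF+, and the blocked fit called neither.

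**Figure D2:**
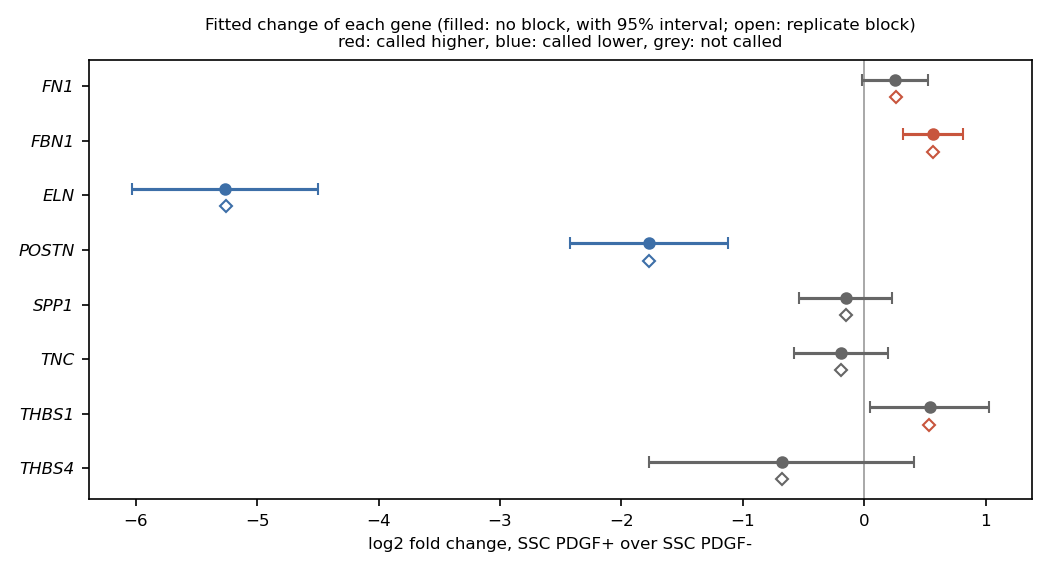
Log2 fold change of SSC PDGF+ over SSC PDGF- for each gene (horizontal axis), filled points with 95% intervals for the fit without a block and open points for the fit with the replicate block, red where called higher, blue where called lower and grey where not called. ELN stands at -5.27 and POSTN at -1.77, and FN1 and THBS1 are red only for the open points.

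Levels of different genes were compared per kb of exon in the RefSeq annotation of Mmul_10, as CPM per kb. In SSC PDGF+ the order was FN1 at 761 ± 24.6, FBN1 at 224 ± 12.7, POSTN at 66.5 ± 21.5, SPP1 at 9.87 ± 0.322, THBS1 at 6.41 ± 1.29, TNC at 3.55 ± 0.392, THBS4 at 0.267 ± 0.0896 and ELN at 0.199 ± 0.0700 CPM per kb (SD, n = 3). Only the last 2, THBS4 and ELN, had overlapping ranges among neighbours in this order. In SSC PDGF- the order was FN1 at 639 ± 78.1, POSTN at 227 ± 71.9, FBN1 at 152 ± 7.58, SPP1 at 11.0 ± 1.29, ELN at 7.68 ± 1.90, THBS1 at 4.41 ± 0.759, TNC at 4.05 ± 0.492 and THBS4 at 0.430 ± 0.159 CPM per kb (SD, n = 3). Here only THBS1 and TNC overlapped among neighbours. FBN1 and POSTN thus changed places, POSTN leading by 1.5-fold without PDGF and FBN1 by 3.37-fold with it, and ELN went from the fifth place to the last.

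**Figure D3:**
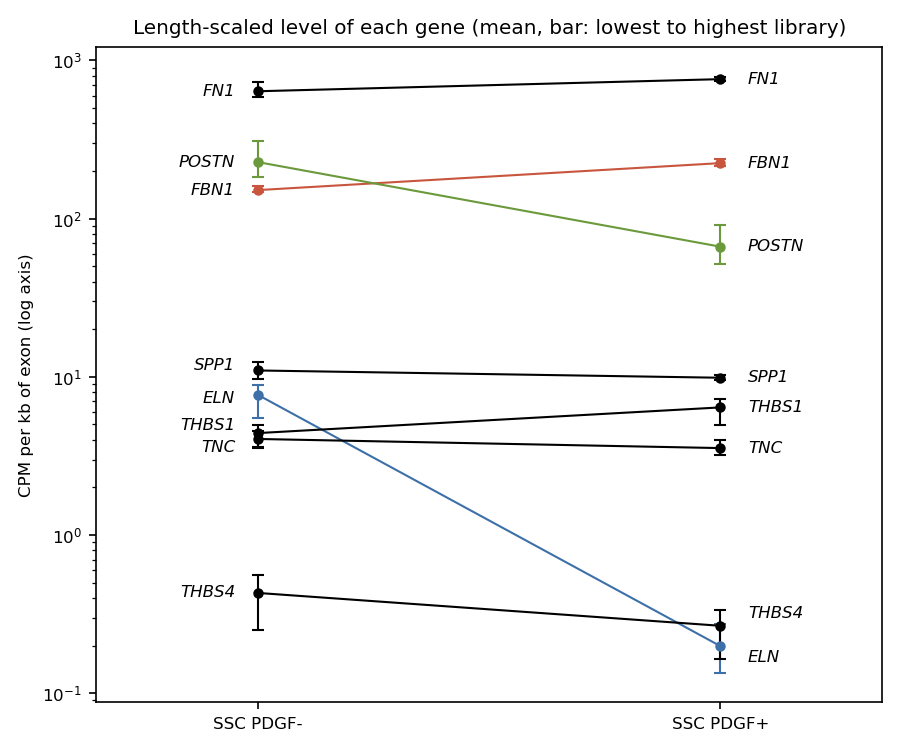
Level of each gene in CPM per kb of exon (vertical log axis) in SSC PDGF- and SSC PDGF+, as the mean of 3 libraries with a bar from the lowest to the highest library. The lines of POSTN (green) and FBN1 (red) cross, and the line of ELN (blue) falls from 7.68 to 0.199.

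Together the 8 genes took 0.862% to 1.01% of the counts in SSC PDGF+ libraries and 0.707% to 0.957% in SSC PDGF- libraries. FN1 and FBN1 held 95.7% to 97.0% of these counts in SSC PDGF+ and 86.5% to 89.4% in SSC PDGF-. By count, FN1 ranked at places 4 to 7 of all genes in the SSC PDGF+ libraries and 4 to 10 in the SSC PDGF- libraries.

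Replicate 1, the only library of batch 1 in each group, stood apart in the same direction in both groups. Replicate 1 was above the mean of replicates 2 and 3 for 5 genes and below it for 3 genes, in SSC PDGF+ and SSC PDGF- alike. POSTN in replicate 1 was 1.69 times the batch 2 mean with PDGF and 1.67 times without. For ELN the same ratios were 0.585 and 0.625, for THBS4 0.521 and 0.485, and for THBS1 0.689 and 0.733. FBN1 had ratios of 1.10 and 1.09, and FN1 ratios of 1.05 and 1.23.

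The genes with the profiles most like those of the 3 most abundant members were found by the root mean square distance of centred log2 CPM over the 6 libraries, among 8795 other genes. The nearest to FN1 were PKP4 (distance 0.0157), COG2 (0.0311) and SNRNP40 (0.0352), and those nearest to FBN1 were TPM3 (0.0268), CDK12 (0.0323) and PTPN11 (0.0380). The nearest to POSTN were PRDM1 (0.179), OGN (0.199) and TCIM (0.212), at larger distances than for FN1 and FBN1. The distances were not scaled for the size of a gene's change, which was larger for POSTN than for FN1 or FBN1.

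Other matricellular proteins were compared as a list of 23 genes, of which 16 passed the filter, 2 were called higher, 2 lower and 12 not called, with a median log2 fold change of 0.02. That is 12.5% in each direction, near the 7.61% and 10.7% of all genes. With the replicate block 5 were called higher and 5 lower, shares like those of all genes under the block (31.1% and 29%). CCN4, a CCN protein induced by Wnt signaling, rose from 30.8 ± 5.14 CPM in SSC PDGF- to 78.1 ± 8.13 CPM in SSC PDGF+ (SD, n = 3), a log2 difference of 1.34 (adjusted p = 0.0018 in edgeR). IBSP, a bone sialoprotein with an integrin-binding site, was at 1.83 ± 1.05 and 5.26 ± 0.815 CPM (log2 difference 1.5, adjusted p = 0.044 in edgeR). The call of IBSP was kept when SSC PDGF- replicate 1 was left out and lost without any of the other 5 libraries (adjusted p = 0.078 to 0.12). TGFBI, the closest relative of periostin, fell with POSTN, from 125 ± 10.01 to 54.7 ± 2.49 CPM (log2 difference -1.19, adjusted p = 0.0010 in edgeR). COMP, the thrombospondin of cartilage, fell from 3.63 ± 0.511 to 0.599 ± 0.361 CPM (log2 difference -2.56, adjusted p = 0.0078 in edgeR). THBS3 was at 121 ± 5.43 CPM with PDGF and 126 ± 6.41 CPM without, with a 95% interval of the log2 fold change of -0.35 to 0.23. CCN2, a profibrotic CCN protein, had a log2 difference of -0.70 (adjusted p = 0.060 in edgeR, or 0.0038 with the block), and CCN1 one of 0.36 (0.13, or 8.9e-05 with the block).

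Other microfibril and elastic fibre proteins were a list of 21 genes, with 18 listed and 15 tested. Of these, 1 was called higher, 4 lower and 10 not called, and the median log2 fold change was -0.11. The shares were 6.67% higher and 26.7% lower, beside 7.61% and 10.7% of all genes, in a list chosen with earlier results of these data known. With the replicate block 3 were higher and 7 lower, beside 31.1% and 29% of all genes. LTBP1, which tethers latent TGF-beta to microfibrils and fibronectin, was at 513, 499 and 503 CPM in SSC PDGF+ and 248, 220 and 234 CPM in SSC PDGF-. It was higher in all 3 SSC PDGF+ libraries, with a log2 difference of 1.11 (adjusted p = 7.0e-04 in edgeR). MFAP4, a microfibril-associated protein that binds elastin, fell from 59.7 ± 7.78 to 13.03 ± 2.46 CPM (SD, n = 3; log2 difference -2.20, adjusted p = 4.0e-04 in edgeR). FBLN5, a fibulin required for elastic fibre assembly, fell from 30.4 ± 2.64 to 14.8 ± 1.89 CPM (log2 difference -1.04, adjusted p = 0.0049 in edgeR). EFEMP1, or fibulin-3, fell from 225 ± 39.0 to 116 ± 11.8 CPM (log2 difference -0.96, adjusted p = 0.0060 in edgeR). FBLN2 fell from 122 ± 32.3 to 52.0 ± 13.1 CPM (log2 difference -1.23, adjusted p = 0.014 in edgeR), and its call was lost without SSC PDGF- replicate 2 (adjusted p = 0.061) or 3 (0.061). The second fibrillin tested, FBN2, was at 40.5 ± 2.50 and 43.7 ± 8.22 CPM, with a log2 difference of -0.11 (adjusted p = 0.69 in edgeR), while FBN1 was called higher.

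Receptors of these proteins were a list of 16 genes with 15 tested, of which 5 were called higher, 0 lower and 10 not called, and the median log2 fold change was 0.40. The share called higher was 33.3%, beside 7.61% of all genes, in a list chosen with earlier results of these data known. With the replicate block 10 were higher and 2 lower, beside 31.1% and 29% of all genes, and with summed replicates 2 were higher and 0 lower, beside 1.72% and 4.06%. ITGB3, the beta subunit of the RGD-binding receptor integrin alpha-v beta-3, was at 10.7, 10.4 and 13.1 CPM in SSC PDGF+ and 1.07, 2.87 and 2.74 CPM in SSC PDGF- (log2 difference 2.36 ± 0.35 (SE), adjusted p = 0.0034 in edgeR). ITGA8, whose receptor binds RGD in fibronectin, osteopontin and tenascin-C, was at 33.1, 30.2 and 29.5 CPM against 7.80, 8.24 and 6.47 CPM (log2 difference 2.04 ± 0.18 (SE), adjusted p = 3.0e-04 in edgeR). Both genes were higher in every SSC PDGF+ library than in any SSC PDGF- library. ITGA4, a fibronectin and osteopontin receptor subunit, rose from 4.73 ± 0.491 to 10.5 ± 0.477 CPM (SD, n = 3; log2 difference 1.16, adjusted p = 0.0061 in edgeR), and CD47, a receptor of thrombospondin-1, from 75.8 ± 1.91 to 124 ± 11.5 CPM (log2 difference 0.72, adjusted p = 0.0087 in edgeR). The fifth receptor called, ITGB5, is named outside the rule after its values were seen. It had a log2 difference of 0.70 (adjusted p = 0.033 in edgeR), and lost its call without replicate 2 or 3 of either group (adjusted p = 0.073 to 0.11). The alpha-v subunit gene ITGAV was at 46.3 ± 6.77 CPM with PDGF and 48.5 ± 8.66 CPM without, with a 95% interval of the log2 fold change of -0.50 to 0.37. ITGA5, the alpha subunit of the main fibronectin receptor, had a log2 fold change of 0.27 and ITGB1, its beta subunit, one of 0.39 (edgeR adjusted p = 0.20 and 0.25, or 2.8e-06 and 2.2e-09 with the block). CD36, a thrombospondin receptor, was at 2.01 ± 0.361 and 3.71 ± 1.58 CPM (log2 difference -0.88, adjusted p = 0.14 in edgeR, or 0.040 with the block). STAB1, also of the receptor list, was at 3.12 ± 1.03 and 6.60 ± 1.63 CPM (log2 difference -1.08, adjusted p = 0.055 in edgeR, or 0.0019 with the block).

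**Figure D4:**
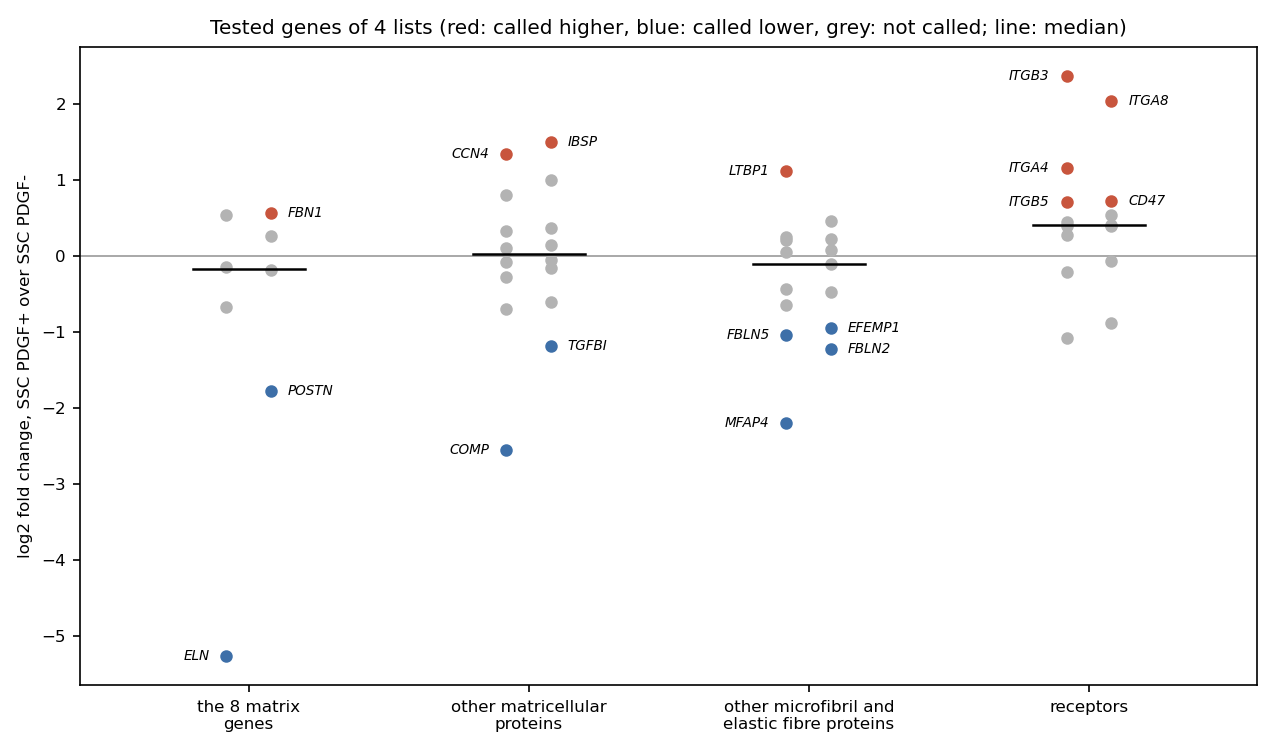
Log2 fold change of SSC PDGF+ over SSC PDGF- (vertical axis) for the tested genes of the 8 matrix genes, other matricellular proteins, other microfibril and elastic fibre proteins and the receptors, with 1 point per gene, names at called genes and a line at the median. The receptors have 5 genes called higher and 0 lower, and the other microfibril genes 1 higher and 4 lower. The lists were chosen with earlier results of these data known.

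With replicates 2 and 3 of each group summed, IBSP (edgeR adjusted p = 0.14), FBLN2 (0.11), FBLN5 (0.080), EFEMP1 (0.083), ITGA4 (0.072), CD47 (0.13) and ITGB5 (0.22) were no longer called, and CCN4, COMP, TGFBI, LTBP1, MFAP4, ITGB3 and ITGA8 were called. The genes of these lists named above as called only with the block were not called in that fit. Their edgeR adjusted p-values were 0.50 for CCN1, 0.28 for CCN2, 0.56 for ITGA5, 0.52 for ITGB1, 0.31 for CD36 and 0.17 for STAB1.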

How the data were processed

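The authors deposited expected counts per gene for 6 libraries, without normalization; 34 values in 13 genes were not whole, none of a gene described here, and all were rounded. The plan assumed whole counts. The submitters' processing notes name fastp, HISAT2 2.1.0, SAMtools and featureCounts 2.0.1 and the builds Mmul_10 and Mmul_8.0.1 without roles. The strand setting is not given in the sources used here, and no coordinates are printed because the build is not settled. In the Mmul_10 annotation, THBS4 and FBN1 each overlap 1 gene on the opposite strand, which is not in the count table. Exon lengths, GC content and sequences came from RefSeq release 103 of Mmul_10, which matched 17389 of the 17795 genes by name.

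Counts were normalized by TMM and tested with edgeR 4.0.16 (glmQLFit and glmQLFTest under R 4.3.3, filterByExpr, no block) over 11539 genes, and p-values were adjusted by Benjamini-Hochberg with a threshold of 0.05. The standard error (SE) of a log2 difference is its size divided by the square root of F, and 95% intervals, not adjusted for multiple tests, use the fit's degrees of freedom. Libraries with the same number share a batch by the labels, and after subtracting the group mean of each gene they were correlated (r = 0.728, 0.350 and 0.374). The number was used as a block in an alternative. The crossed pairs within batch 2 gave 0.360 and 0.393, as high as the matched ones. The correlations thus show no pairing by number within batch 2. Replicates 2 and 3 differed by 3.36 and 3.64 in chi-square per degree of freedom, and from replicate 1 by 44.8 to 57.0, so p-values measure the spread between these libraries, which may be technical. Other alternatives were limma-voom (limma 3.58.1), DESeq2 1.42.0, other normalizations, filters and thresholds, batch as a term, batch 2 alone, summed replicates, a GC and length correction with the block, and each library left out. The steps were tested on simulated counts. The simulated libraries were independent and had no batch difference, unlike these, so that test cannot tell how often calls are false in this design. All 8 listed members are named; from each related list up to 4 called genes per direction are named by the size of their change, and other genes of the lists were chosen after their values were seen. The members and lists were chosen with earlier results of these data known.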

Additional observations from a re-analysis of the deposited data

How the results depend on the processing

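ELN and POSTN were called lower wherever they were tested, except that ELN and THBS4 were not tested with at least 10 counts in every library, which left 1 gene of the set called lower. As reported, without a block, FBN1 alone was called higher. With the replicate block, with the block and a GC and length correction, with batch as a term and in batch 2 alone, 3 genes were called higher, since FN1 and THBS1 joined it. With replicates 2 and 3 summed, or an absolute log2 fold change above 1 required, 0 were. Leaving out each library in turn gave 0 to 2, with 2 without replicate 1 of either group and 0 without SSC PDGF- replicate 2 or 3. Of the other single-gene results, 129 kept their direction and side of the threshold, 10 gained a call (FN1 and THBS1) and 3 lost it (FBN1), and none changed sign. Adding the GC and length correction to the block changed the log2 fold change of FN1 from 0.26 to 0.18. That of FBN1 went from 0.57 to 0.44, and that of THBS1 from 0.53 to 0.44. For POSTN it went from -1.78 to -1.99, and for ELN from -5.26 to -5.08. Over all genes, 878 were called higher and 1230 lower. These counts were 358 and 544 at an adjusted p under 0.01, 3587 and 3347 with the replicate block, 3071 and 3208 with the block and the correction, 3604 and 3387 with batch as a term, 3041 and 3085 in batch 2 alone, and 206 and 487 with summed replicates. With an absolute log2 fold change above 1 required, 393 were higher. The leave-one-out counts were 435 to 1284 higher and 726 to 1726 lower, and the low ones came from leaving out replicate 2 or 3 of either group. The cause of these differences was not tested. Depth limits THBS4, with 8 to 19 counts a library, and ELN, with 8 to 14 in the SSC PDGF+ libraries.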
